A study of Mus musculus with 24 samples.

Results

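Wide peaks at gene ends are the stretches of accessible chromatin that were at least 800 bp wide and lay within 1 kb of either annotated end of a mouse gene. They numbered 9597 of the 75802 peaks measured by ATAC-seq in mouse CD8 T cells, 12.7% of the peaks and 27.6% of the bases in them, 11.4 of 41.5 Mb. The remaining peaks were 10014 narrower peaks at gene ends, 6514 peaks as wide but farther than 1 kb from any gene end, and 49677 narrower peaks elsewhere. Members thus made up 48.9% of 19611 gene-end peaks and 59.6% of 16111 wide peaks.

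The cells were CD8 T cells of C57BL/6J mice, taken from spleen and lymph nodes with magnetic beads and activated in culture with anti-CD28 and the growth factor IL-2. All groups shared this activation for 3 days. From day 2 to day 3 the medium held 20 mM sodium chloride (NaCl, the control with the same added sodium), 20 mM sodium pyruvate, 20 mM sodium lactate, or sodium lactate together with Oxyrase, a preparation of bacterial membranes that consumes oxygen. Each of the 4 groups had 3 ATAC-seq libraries and 3 RNA-seq libraries. Nothing in the labels ties a group's libraries to separate mice or cultures, so p-values measure the spread between these libraries, which may be technical. Oxyrase was given only together with lactate.

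The ends of a gene are where transcription begins (the 5′ end) and where it stops (the 3′ end). At the 5′ end of an active gene, the promoter, nucleosomes are displaced so that general transcription factors and RNA polymerase can bind, and the transposase used in ATAC-seq inserts its adapters readily there. Broad open promoters are known mostly from genes used by nearly all cells, whose promoters lie in CpG islands, stretches rich in unmethylated CG dinucleotides, whereas many enhancers, which lie away from gene ends, are opened by factors particular to a cell type or its activation state.

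ATAC libraries held 25.3 to 37.1 M peak counts (M for mega) and RNA libraries 26.0 to 39.6 M; the median member held 928 to 1477 counts per library, and the lowest count of any member in any library was 53. One ATAC library, NaCl 3, stood apart from NaCl 1 and NaCl 2, and the share of counts and the calls and medians for lactate against NaCl are also given without it. Summed transcript levels of 5 CD8 T cell markers were 930 to 1481 CPM (counts scaled to equal library size, TMM-adjusted) in every library and lowest with Oxyrase (930 to 991). All 4 erythroid markers together stayed at or below 0.282 CPM, and 1 of them was at 0 in every library. Summed B cell markers (8 genes) went from 206 to 213 CPM in NaCl down to 65.4 to 76.8 CPM with Oxyrase, while 3 CD4 T cell markers went from 14.4 to 16.2 up to 38 to 47.5 CPM, 3 NK markers from 5.25 to 5.73 up to 20.1 to 23.4 CPM, and 9 myeloid markers from 1.57 to 1.96 up to 5.48 to 7.26 CPM. Their part in the results with Oxyrase was not tested. No B cell or NK marker gene had a wide gene-end peak.

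Most members were promoters. In 8265 members (86.1%) a gene end lay inside the peak, and 8519 (88.8%) were at the end of a protein-coding gene. With gene strand from RefSeq, 6680 members (69.6%) were at 5′ ends only, 685 (7.14%) at both 5′ and 3′ ends, and 391 (4.07%) at 3′ ends only; for the other 1841 (19.2%) the strand of at least one gene was not given. The members touched 12308 genes, of which 9654 encode proteins. The rest included 1929 long noncoding RNA genes, 200 transfer RNA (tRNA) genes at 122 members, 123 microRNA genes at 112 members, 67 small nucleolar RNA genes at 55 members and 61 small nuclear RNA genes at 58 members. At 868 members a pair of genes began on opposite strands, the arrangement called a divergent or bidirectional promoter.

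Width is itself drawn from the reads of these libraries. The median member was 1116 bp wide (quartiles 952 and 1348 bp, maximum 4225 bp), against 430.5 bp for narrower gene-end peaks and 983 bp for wide peaks elsewhere. Members were also dense in counts, with a median of 32.1 CPM per kb over all libraries, against 13.4 at narrower gene-end peaks, 20.4 at wide peaks elsewhere and 10.9 at narrower peaks elsewhere. At the edge of the width rule, members of exactly 800 bp at Casp8, Myl6b and Milr1 had 24.2, 61.6 and 20.0 CPM per kb, and the excluded peaks of 799 bp at Mir203, Ighv1-74 and Pold4 had 14.7, 29.5 and 39.1. Over all such peaks the median was 40.4 CPM per kb for the 12 peaks of 800 bp and 24.1 for the 10 peaks of 799 bp.

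The widest members were at the ribosomal RNA repeat Rn18s-rs5 (4225 bp), Cdk6 (3666 bp), LOC108167694 (3401 bp), LOC102634078 (3051 bp), Arhgef18 (3007 bp) and Wls (2917 bp). Cdk6 encodes a kinase that drives entry into the cell cycle, Arhgef18 an activator of small GTPases and Wls the carrier that takes Wnt proteins to the cell surface. The densest members after the ribosomal repeat were at Khsrp (191.5 CPM per kb), which encodes an RNA-binding splicing regulator, Mtmr4 (163.0), a lipid phosphatase, Zbtb20 (160.7), a zinc finger repressor, and M6pr (159.3), the receptor that sorts enzymes to lysosomes.

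Sequence was read from RefSeq promoter windows of GRCm38.p6, which run from 250 bases before a gene's annotated start to 50 bases after it. Of 32851 windows, 8485 (25.8%) lay inside members, in 6302 members, 1533 lay inside narrower gene-end peaks and 21917 (66.7%) in no peak. The median GC content was 63.7% inside members, 60.3% inside narrower gene-end peaks and 48.7% outside peaks, with a median of 24, 19 and 4 CG dinucleotides per window. The 672 windows inside wide peaks away from gene ends were alike, with a median of 63.3% GC and 23 CG dinucleotides. The 5 promoters below show the range. Kifc5b, Ctdnep1 and Srsf3 are the 3 members with the lowest change in lactate against NaCl under the naming rule, Nqo1 rose with Oxyrase, and Fam184b is a GC-poorer promoter that rose with lactate. Only the 250 bases before the annotated start are printed, 5′ to 3′ on the gene's strand; capitals mark matches to the motifs named in the next paragraph.

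Kifc5b promoter, chr17:26916841-26917090, plus strand: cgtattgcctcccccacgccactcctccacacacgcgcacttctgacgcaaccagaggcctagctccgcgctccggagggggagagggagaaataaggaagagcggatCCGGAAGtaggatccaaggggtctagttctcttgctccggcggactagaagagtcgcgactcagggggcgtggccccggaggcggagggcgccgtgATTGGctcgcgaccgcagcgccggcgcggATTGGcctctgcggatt
Ctdnep1 promoter, chr11:69980918-69981167, plus strand: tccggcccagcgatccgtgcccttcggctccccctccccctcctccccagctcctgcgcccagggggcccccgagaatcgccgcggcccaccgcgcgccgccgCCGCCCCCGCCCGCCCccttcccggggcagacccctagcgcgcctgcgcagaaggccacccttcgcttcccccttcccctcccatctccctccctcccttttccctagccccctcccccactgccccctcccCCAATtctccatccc
Srsf3 promoter, chr17:29032410-29032659, plus strand: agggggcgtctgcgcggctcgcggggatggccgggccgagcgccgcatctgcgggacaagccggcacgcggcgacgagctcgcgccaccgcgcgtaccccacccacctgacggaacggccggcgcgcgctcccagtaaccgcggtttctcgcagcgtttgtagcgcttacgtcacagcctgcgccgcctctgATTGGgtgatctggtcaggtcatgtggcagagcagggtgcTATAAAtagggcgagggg
Nqo1 promoter, chr8:107403206-107403455, minus strand: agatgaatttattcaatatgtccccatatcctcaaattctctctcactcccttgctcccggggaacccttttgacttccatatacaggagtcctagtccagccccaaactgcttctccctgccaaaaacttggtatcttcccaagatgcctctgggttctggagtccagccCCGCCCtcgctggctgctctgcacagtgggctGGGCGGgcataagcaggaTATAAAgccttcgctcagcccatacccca
Fam184b promoter, chr5:45639502-45639751, minus strand: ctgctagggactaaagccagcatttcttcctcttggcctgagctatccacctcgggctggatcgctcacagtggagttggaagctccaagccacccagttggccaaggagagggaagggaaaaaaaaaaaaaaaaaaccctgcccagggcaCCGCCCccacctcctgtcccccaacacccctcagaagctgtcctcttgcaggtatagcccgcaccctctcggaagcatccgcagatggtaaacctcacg

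The motifs were searched on both strands of the 300-base windows as exact letters. They were the GC box GGGCGG bound by SP and KLF factors, the ETS core CCGGAAG, the NRF1 site CGCATGCG, the YY1 site AAGATGGC, the cyclic AMP response element TGACGTCA, the CCAAT box, the E-box CACGTG, the hypoxia response core ACGTG, the TATA box TATAAA, the AP-1 site TGACTCA and the RUNX core TGTGGT. The hypoxia response core is contained in the E-box, so every E-box also counts as a core match. In the printed stretches, Kifc5b has 66.0% GC and 27 CG dinucleotides, an ETS core beginning at base -142 and reversed CCAAT boxes at -46 and -17, counted back from the start. Ctdnep1 has 76.0% GC and 22 CG dinucleotides, 3 reversed GC boxes at -147, -141 and -137 that lie next to each other or overlap, and a CCAAT box at -15. Srsf3 has 69.6% GC and 35 CG dinucleotides, a reversed CCAAT box at -58 and a TATA box at -18. Nqo1 has 53.2% GC and only 5 CG dinucleotides, GC boxes at -79 (reversed) and -47 and a TATA box at -29. Fam184b has 56.8% GC, 7 CG dinucleotides and 1 reversed GC box at -99.

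Across the class, 72.4% of windows inside members held the GC box, against 62.5% inside narrower gene-end peaks and 35.7% of all windows. The ETS core was in 21.2%, 17.5% and 8.86%, the NRF1 site in 4.76%, 2.67% and 1.87%, the YY1 site in 5.06%, 4.37% and 2.75%, and the cyclic AMP response element in 3.81%, 3.00% and 1.79%, in the same order. The CCAAT box was in 37.7%, 43.8% and 37.4%, the E-box in 11%, 11.7% and 7.15%, and the hypoxia response core in 27.8%, 27.7% and 19.6%. Sites of factors that open enhancers in T cells were less frequent inside members: AP-1 in 2.68%, 6.98% and 5.20%, and RUNX in 11.3%, 15.1% and 16.8%. The TATA box was in 5.17%, 6.72% and 13.6%. These are descriptions of letters with no test. Median GC was 63.7%, 60.3% and 52.7% in the same order of windows, and the frequencies were not corrected for base composition. A match is not a bound site, and no match says only that these letters are not in the window.

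The share of all peak counts that fell in members was the simplest measure of the class. In NaCl it was 44.4%, 44.9% and 41.4% in libraries 1, 2 and 3 (43.6% ± 1.88, SD, n = 3), and with pyruvate 44.0%, 44.5% and 42.4% (43.6% ± 1.13, n = 3). With lactate it was 42.0%, 40.3% and 40.6% (41.0% ± 0.907, n = 3), and with lactate and Oxyrase 37.7%, 39.5% and 38.7% (38.7% ± 0.877, n = 3). The Oxyrase libraries lay below all 9 others, the lactate libraries lay below all pyruvate libraries, and only NaCl 3 reached into the range of the lactate libraries.

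The 4 groups differed in this share by an exact permutation test over libraries (two-sided, every way to part 12 libraries into 4 groups of 3; p = 0.00532, adjusted p = 0.0144 over 8 such measures). Oxyrase added to lactate lowered the mean share by 2.32 percentage points, and pyruvate was 2.65 points above lactate, both without overlap (exact permutation p = 0.10, the smallest that 3 against 3 allow; 0.167 after Benjamini-Hochberg adjustment over the 5 comparisons). Lactate was 2.62 points below NaCl with 1 overlapping library (exact p = 0.20, adjusted 0.25). Pyruvate and NaCl differed by 0.03 points (exact p = 1.0). With 1 library left out at a time, the exact permutation p of the 4 groups ranged from 0.000649 (without NaCl 3) to 0.0247 (without Oxyrase 1). Peaks away from gene ends held more of the counts where members held less. The share of narrower peaks there was 28.1% to 30.8% in NaCl, 28.4% to 30.1% with pyruvate, 30.3% to 31.7% with lactate and 33.0% to 34.3% with Oxyrase, and that of wide peaks there 17.0% to 18%, 17.0% to 17.5%, 18.1% to 18.2% and 18.2% to 18.4%. A share says only how a library's peak counts are divided: fewer counts in members and more counts elsewhere cannot be told apart from it.

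**Figure D1:**
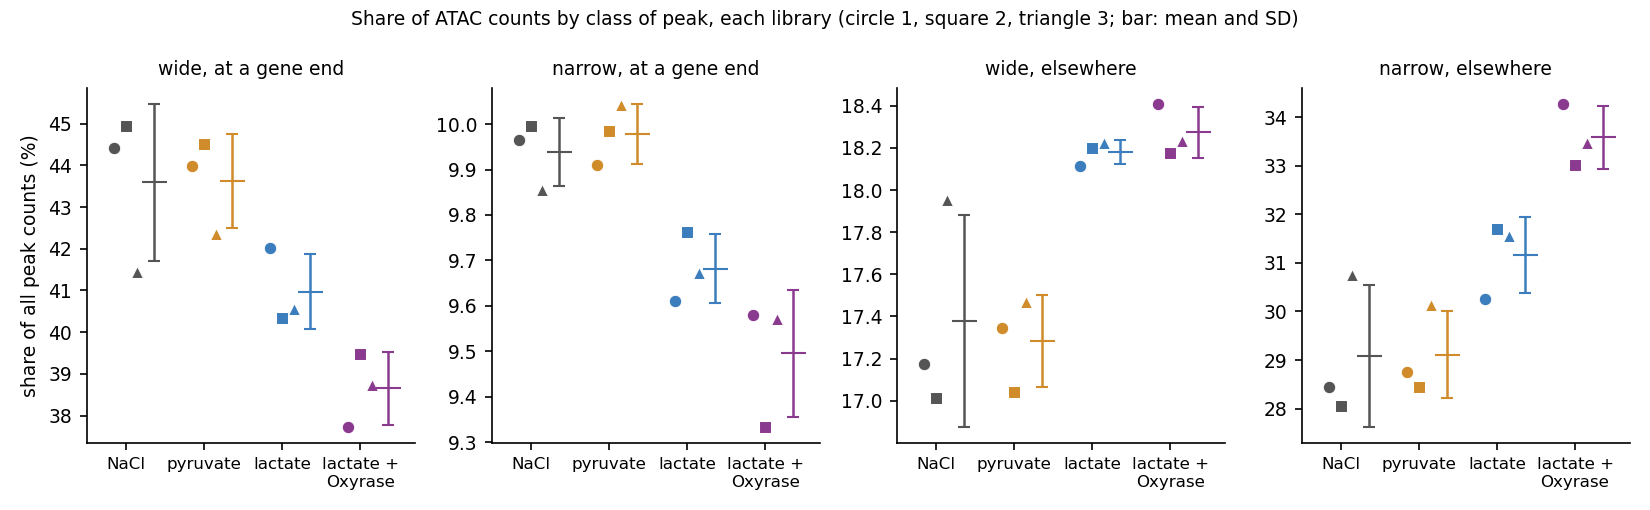
Share of all ATAC peak counts (%, y axes that do not start at 0) in each of the 4 classes of peak, by group (x axis); points are single libraries and bars the mean and SD of 3. In wide gene-end peaks the 3 Oxyrase libraries (37.7% to 39.5%) lie below all others, and NaCl 3 (41.4%) lies among the lactate libraries; in narrow peaks elsewhere the order is turned around.

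Wide peaks at gene ends were also set against peaks as wide that lie elsewhere. The log2 ratio of summed counts in wide gene-end peaks to those in wide peaks elsewhere was 1.33 ± 0.10 in NaCl, 1.34 ± 0.05 with pyruvate, 1.17 ± 0.04 with lactate and 1.08 ± 0.04 with Oxyrase (SD, n = 3 each). The groups differed in it (exact permutation p = 0.00558, adjusted 0.0144). With 1 library left out at a time, the exact permutation p ranged from 0.00039 (without NaCl 3) to 0.0196 (without Oxyrase 1). The same ratio against narrower gene-end peaks was 2.13 ± 0.05, 2.13 ± 0.04, 2.08 ± 0.04 and 2.03 ± 0.05 and did not pass the test (exact permutation p = 0.0832, also 0.0832 adjusted). With median log2 CPM in place of summed counts, a measure added after the data were seen, the wide members stood above narrower gene-end peaks by 2.91 ± 0.14, 2.93 ± 0.10, 2.73 ± 0.10 and 2.60 ± 0.06 (exact permutation p = 0.0179, adjusted 0.0286). Members and narrower gene-end peaks thus differed by 1 of these measures and not by the other.

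For single peaks, log2 fold changes and adjusted p-values came from edgeR's quasi-likelihood test over all 75802 peaks, with libraries scaled by TMM over all peaks, Benjamini-Hochberg adjustment and 0.05 as the threshold. The words rose and fell are kept for members that passed. Members named as highest or lowest in a comparison were chosen among those whose compared groups did not overlap. For them that lack of overlap was set by the naming rule and is not a result. Because members held at least 37.7% of the counts of every library, the sign of a change in the class depends on what the libraries are scaled to, so the counts are also given with TMM taken over the members alone, which sets the typical member to no change. That second scaling moved the median log2 fold change of all peaks from 0.03 to 0.16 for lactate against NaCl, from 0.03 to 0.29 for Oxyrase with lactate against NaCl, from -0.02 to 0.11 for Oxyrase with lactate against lactate, and from -0.03 to -0.16 for pyruvate against lactate. The comparisons share libraries and are not independent of each other.

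Pyruvate against NaCl asks what the carbon source changed at equal sodium. No member was called in edgeR, as no peak was among all 75802 (0.0%), and DESeq2 and the scaling over members also gave 0 members. The members' median log2 fold change was -0.01, and 123 of 9597 had an unadjusted p below 0.05. The 3 members of smallest p were at Ifi211, an interferon-inducible DNA sensor gene, Zfp286, a zinc finger gene, and the predicted gene Gm39454. Zfp286, whose end lies beside the pseudogene Wsb2-ps, had 19.7, 19.2 and 21.6 CPM in NaCl and 16.0, 15.3 and 14.8 CPM with pyruvate. These values did not overlap, but the change of -0.39 ± 0.09 (SE) had an edgeR adjusted p of 0.476. Ifi211 had 16.1, 15.7 and 16.7 CPM in NaCl against 12.5, 11.8 and 12.6 CPM (edgeR adjusted p = 0.543), likewise without overlap.

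Lactate against NaCl lowered 1883 members (19.6%) and raised 33 (0.344%), where 5.28% of all peaks were lower and 1.13% higher by the same rule. Members were 12.7% of the peaks, 47.1% of the peaks called lower and 3.86% of those called higher. Their median log2 fold change was -0.13, against 0.00 for narrower gene-end peaks, 0.05 for wide peaks elsewhere, 0.06 for narrower peaks elsewhere and 0.03 over all peaks. Scaled over the members, 934 fell (background 2.27%) and 515 rose (background 5.34%), and the members' median was 0.01. Lower calls were 98.3% of the called members under the main scaling, 88.0% with total counts, 73.5% with a loess trend on mean accessibility and 64.5% with the scaling over members. The size of the list depended on single libraries: 3682 members fell and 197 rose without NaCl 3, with a median of -0.19. When NaCl 1 was omitted instead 507 fell, and omitting NaCl 2, lactate 2 or lactate 3 gave 286, 903 and 458.

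The lowest change was at Kifc5b, which encodes a kinesin motor of the mitotic spindle. Its promoter peak on GRCm38, chr17:26916663-26917469, had 54.1, 52.7 and 35.9 CPM in NaCl, 49.1, 48.6 and 42.3 with pyruvate, 30.7, 26.4 and 27.5 with lactate, and 22.9, 25.8 and 21.4 with Oxyrase and lactate. All lactate libraries lay below all NaCl and pyruvate libraries, and NaCl 3 was the lowest of its group. The log2 fold change of lactate against NaCl was -0.75 ± 0.11 (SE; edgeR adjusted p = 0.000129), and -0.60 (adjusted p = 0.0013) scaled over members. Its transcript did not pass the test in any of the 5 comparisons.

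Ctdnep1, which encodes a phosphatase of the nuclear envelope, shares its promoter peak (chr11:69980060-69981506) with Elp5, a subunit of the Elongator complex. Counts there were 69.8, 77.4 and 48.1 CPM in NaCl, 61.1, 66.6 and 60.6 with pyruvate, 43.1, 37.8 and 37.1 with lactate, and 26.8, 28.8 and 27.9 with Oxyrase. The groups of lactate, of Oxyrase and of the other libraries did not overlap. The change was -0.72 ± 0.11 for lactate against NaCl (edgeR adjusted p = 0.000129) and -1.22 ± 0.11 for Oxyrase with lactate against NaCl (adjusted p = 5.99e-12), the lowest under the naming rule in that comparison.

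Srsf3, a splicing factor of the SR family, went from 60.2, 66.2 and 43.6 CPM in NaCl to 36.9, 36.9 and 31.4 with lactate and 25.4, 25.4 and 26.6 with Oxyrase, with pyruvate at 58.1, 58.4 and 49.5. It fell by 0.69 on the log2 scale with lactate (-0.69 ± 0.10, edgeR adjusted p = 0.000164). The next were H2-DMa, which encodes a chaperone of MHC class II peptide loading (-0.69 ± 0.11, adjusted p = 0.000216), and Zfp318, a nuclear zinc finger protein (-0.68 ± 0.10, adjusted p = 0.000192). In all of these 5 promoters NaCl 3 was the lowest NaCl library. That it still lay above every lactate library was set by the naming rule. Each promoter also fell when scaled over the members. Of the 5, Kifc5b, Srsf3, H2-DMa and Zfp318 lie on chromosome 17 and Ctdnep1 on chromosome 11.

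Members that rose with lactate were few. Nfe2, an erythroid and megakaryocyte transcription factor, had 13.0, 10.6 and 14.0 CPM in NaCl and 16.0, 17.0 and 20.7 CPM with lactate. The groups did not overlap, and the change was 0.51 ± 0.13 (edgeR adjusted p = 0.00947); with Oxyrase the values were 12.6, 9.13 and 14.7 CPM. Gas5, the host gene of several small nucleolar RNAs, had 29.1, 28.6 and 38.7 CPM in NaCl and 41.4, 44.0 and 44.4 CPM with lactate at a peak by its 3′ end (0.43 ± 0.11, adjusted p = 0.0109), and 59.9, 42.5 and 54.6 CPM with Oxyrase. Mto1, a mitochondrial tRNA-modifying enzyme (0.46 ± 0.10), Fam184b, named for its gene family (0.44 ± 0.11), and Tnfrsf1b, the TNF receptor 2 gene (0.42 ± 0.11), were the others under the naming rule. Of these 5, Mto1, Gas5 and Tnfrsf1b were peaks at a 3′ end, a position of only 4.07% of members; Fam184b was at a 5′ end, and the strand of Nfe2 was not given.

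**Figure D2:**
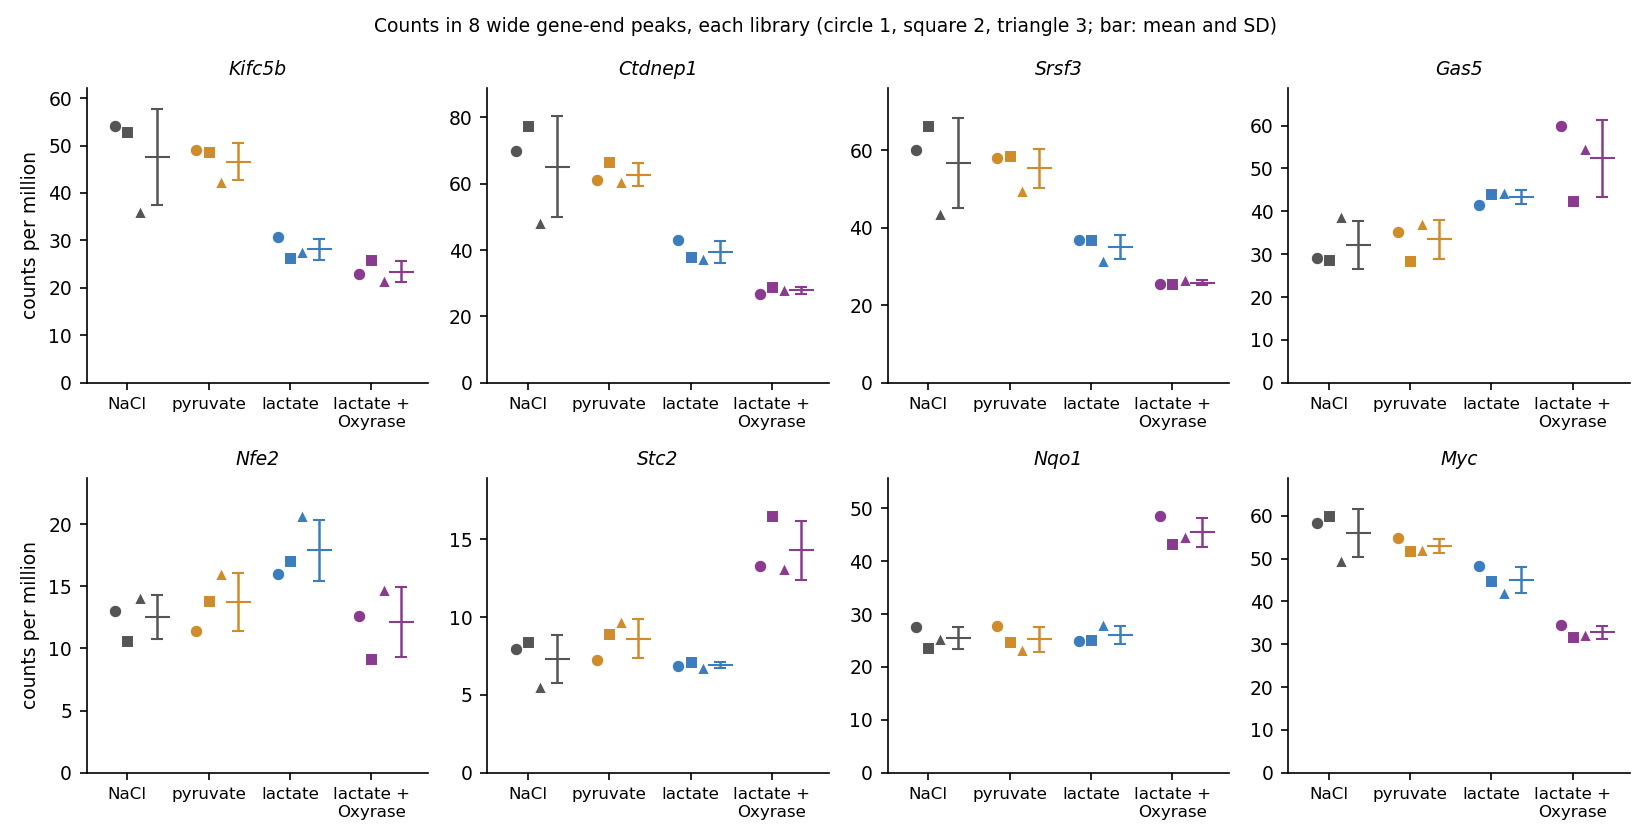
CPM (y axes from 0) in 8 wide gene-end peaks by group (x axis), with each library as a point and the mean and SD of 3 as a bar. Kifc5b, Ctdnep1, Srsf3 and Myc step down with lactate and are lowest with Oxyrase, Nfe2 is highest with lactate (16.0 to 20.7), and Stc2 and Nqo1 are high only with Oxyrase (13.1 to 16.5 and 43.2 to 48.5).

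Oxyrase with lactate against lactate asks what the addition of Oxyrase changed. Oxygen removal cannot be told apart here from other effects of the preparation. Oxyrase added to lactate lowered 2430 members (25.3%) and raised 278 (2.90%), where 12.8% of all peaks were lower and 15.6% higher. Members were 25.1% of all peaks called lower. The members' median was -0.13, against -0.06 for narrower gene-end peaks, -0.03 for wide peaks elsewhere, 0.04 for narrower peaks elsewhere and -0.02 over all peaks. Scaled over the members, 1106 fell (background 5.08%) and 1071 rose (background 21.2%), with a median of 0.00. Lower calls were 89.7% of the called members under the main scaling, 67.9% with the loess trend and 50.8% with the scaling over members. Leaving out any 1 of the 6 libraries gave 1994 to 2239 called members.

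The member that rose most under the naming rule was at Stc2, which encodes the secreted glycoprotein stanniocalcin 2. Its promoter had 6.89, 7.09 and 6.71 CPM with lactate and 13.3, 16.5 and 13.1 CPM with Oxyrase added, against 7.95, 8.39 and 5.54 in NaCl and 7.23, 8.93 and 9.66 with pyruvate. All Oxyrase libraries lay above the other 9. The change was 1.05 ± 0.13 (SE; edgeR adjusted p = 3.48e-08), and the transcript rose with it, from 9.70 ± 1.68 to 26.1 ± 5.11 CPM (SD, n = 3; log2 fold change 1.43 ± 0.14, adjusted p = 1.96e-07).

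Nqo1 encodes a quinone reductase induced through the oxidant sensor NRF2. Its promoter peak, chr8:107402844-107403898, had 25, 25 and 27.9 CPM with lactate and 48.5, 43.2 and 44.6 CPM with Oxyrase added, and 27.6, 23.6, 25.2 and 27.7, 24.7, 23.2 CPM in NaCl and pyruvate. The Oxyrase libraries again lay above all others (0.81 ± 0.09, edgeR adjusted p = 3.35e-09). The transcript went from 0.452 ± 0.205 to 5.20 ± 0.427 CPM (3.47 ± 0.24, adjusted p = 2.19e-09). It was 2.5 ± 0.195 CPM with pyruvate against 0.489 ± 0.160 CPM in NaCl, a rise that passed the test (adjusted p = 9.1e-06), while the promoter peak there stood at -0.01 ± 0.09.

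P2ry14, a receptor for UDP-sugars (0.96 ± 0.09 at its 3′ end), and Tmem260 (0.91 ± 0.11) were further members that rose under the naming rule, and their transcripts did not rise. P2ry14 fell in RNA (-0.72 ± 0.17, edgeR adjusted p = 0.0024), and Tmem260 stood at -0.02 (adjusted p = 0.78). In P2ry14 the 3 Oxyrase libraries had 38.3, 42.9 and 36.1 CPM in the peak and the 3 lactate libraries 19.7, 18.3 and 22.2 CPM, without overlap.

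The lowest members were at Pou6f1, a homeodomain factor gene (-0.89 ± 0.15), Nr2e3, an orphan nuclear receptor gene (-0.81 ± 0.09), Erg, a gene of the ETS factors (-0.77 ± 0.10), Tha1, threonine aldolase (-0.72 ± 0.09), and the immunoglobulin segment Ighv1-12 (-0.70 ± 0.11). The Erg peak, 852 bp from the gene's 3′ end, had 47.7, 42.7 and 44.2 CPM with lactate and 28.5, 27.1 and 23.3 CPM with Oxyrase, without overlap (edgeR adjusted p = 4.24e-08). The Erg transcript fell from 1.28 ± 0.242 to 0.301 ± 0.157 CPM (-2.11 ± 0.37, adjusted p = 0.000153), and that of Tha1 from 1.30 ± 0.146 to 0.238 ± 0.0980 CPM (-2.44 ± 0.38, adjusted p = 3.72e-05). Both transcripts are at low levels.

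Oxyrase with lactate against NaCl, which joins both treatments, lowered 5091 members (53%) and raised 536 (5.59%), where 19.2% of all peaks were lower and 21.5% higher. The median was -0.25, against 0.03 over all peaks. Scaled over the members the split was even, with 2605 lower (background 7.88%) and 2688 higher (background 40.9%) and a median of 0.01. Lower calls were 90.5%, 78.1%, 64.7% and 49.2% of the called members under the main scaling, total counts, the loess trend and the scaling over members. After Ctdnep1 the lowest were H2-DMa (-1.21 ± 0.11), Mcrs1, a subunit of chromatin complexes (-1.20 ± 0.11), Jade2, a scaffold of a histone acetyltransferase complex (-1.17 ± 0.10), and Eif3d, a subunit of the translation initiation factor eIF3 (-1.16 ± 0.11). Mcrs1 had 51.7, 51.1 and 33.3 CPM in NaCl, 33.3, 30.1 and 27.3 with lactate and 18.8, 21.3 and 19 with Oxyrase; NaCl 3 and lactate 1 were level. Its transcript was 48.9 ± 1.49 CPM in NaCl and 49.0 ± 1.42 CPM with Oxyrase (edgeR adjusted p = 0.97). Members that rose under the naming rule included Stc2 (0.98 ± 0.13), Tmem260 (0.92 ± 0.11), P2ry14 (0.90 ± 0.09) and Edil3, an integrin ligand gene (0.89 ± 0.09).

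Pyruvate against lactate sets side by side 2 sodium salts of interconvertible carbon sources. Pyruvate raised 2244 members (23.4%) and lowered 189 (1.97%) relative to lactate, where 6.84% of all peaks were higher and 4.78% lower. Members were 43.3% of all peaks called higher. The median was 0.12 over members and -0.03 over all peaks. Scaled over the members, 1374 were higher (background 3.55%) and 1089 lower (background 12.3%), with a median of -0.01. Lower calls were 7.77%, 20.4%, 32.7% and 44.2% of the called members under the main scaling, total counts, the loess trend and the scaling over members. Fewer members were called without pyruvate 1 (1490), pyruvate 2 (1241), lactate 2 (1454) or lactate 3 (1038) than with all libraries (2433).

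The highest was the promoter of Fubp3, which encodes a single-strand DNA-binding regulator of transcription. It had 28.2, 29.5 and 25 CPM with pyruvate and 17.1, 16.3 and 15.2 CPM with lactate, with NaCl at 26.5, 27.5 and 22.2 (0.77 ± 0.10, edgeR adjusted p = 1.8e-05). Pyruvate and NaCl libraries overlapped each other and lay above every lactate library. The next were Nlk, a kinase of the Wnt and Notch pathways (0.74 ± 0.10), Sf3b2, a core splicing factor (0.73 ± 0.10), Kifc5b (0.73 ± 0.11) and Kdm2a, a histone demethylase (0.72 ± 0.11). The lowest were Hnrnpa3, an RNA-binding protein (-0.68 ± 0.14), Tnfrsf1b (-0.53 ± 0.11), Ighv1-12 (-0.53 ± 0.11), the ribosomal protein gene Rps15a (-0.52 ± 0.10) and Mto1 (-0.50 ± 0.10). Among these, Hnrnpa3, Tnfrsf1b, Rps15a and Mto1 were peaks at a 3′ end.

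**Figure D3:**
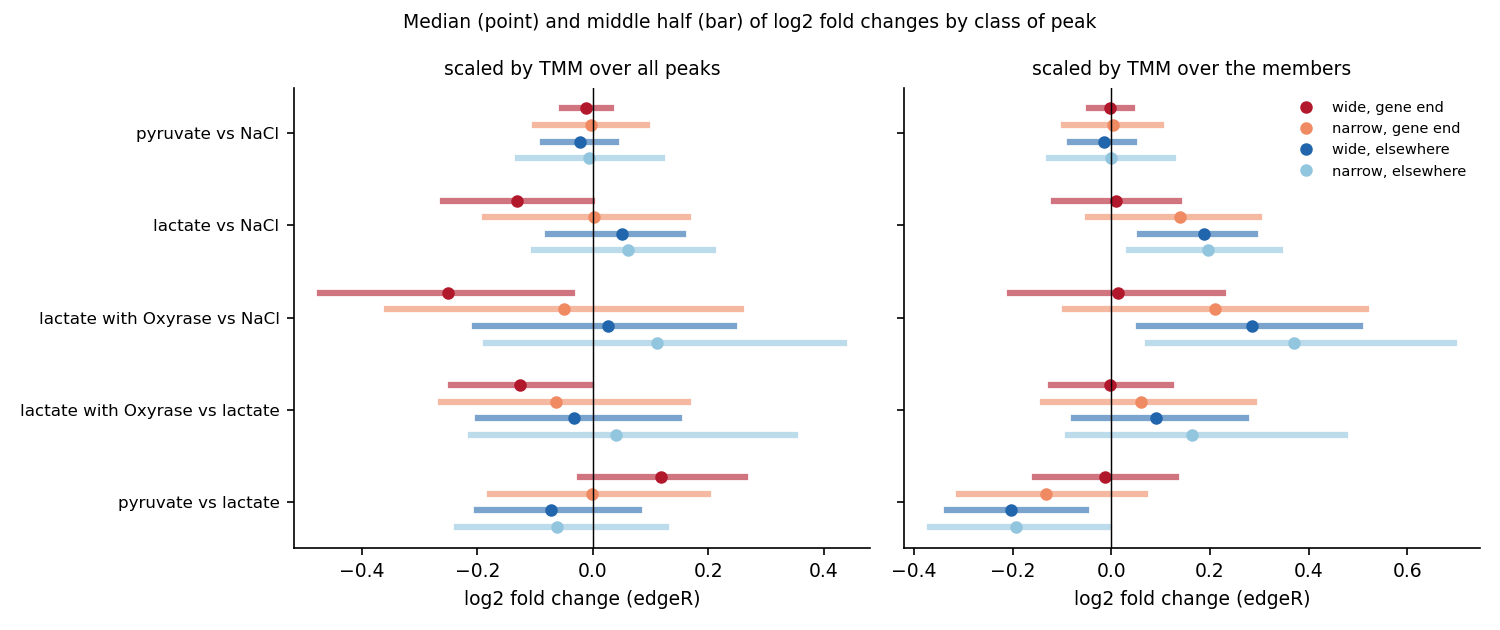
Median (points) and the range between the quartiles (bars) of edgeR log2 fold changes (x axes) for the 4 classes of peak in the 5 comparisons, with libraries scaled by TMM over all peaks (left) or over the wide gene-end peaks (right). Wide gene-end peaks lie below the other classes for lactate and Oxyrase (medians -0.13, -0.25 and -0.13) and above them for pyruvate against lactate (0.12); scaling over members moves all classes together and keeps their order.

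Members varied with their position at the gene. For lactate against NaCl the median was -0.15 at members with 5′ ends only, of which 21.3% fell, and 0.01 at members with 3′ ends only, of which 11.8% fell and 3.07% rose. For Oxyrase with lactate against lactate these were -0.13 with 26.0% lower and 2.04% higher at 5′ ends, and -0.08 with 20.7% lower and 12.5% higher at 3′ ends. Divergent promoters changed more: 27.8% fell with lactate (median -0.19) and 30.9% with Oxyrase added (median -0.15), and 33.5% were higher with pyruvate than lactate. Members with a single gene's 5′ end had 20.5% lower with lactate (n = 5774, median -0.14). These groups also differed in density. The median was 41.1 CPM per kb at divergent promoters and 32.4 at members with a single gene's 5′ end. It was 33.7 at members with 5′ ends only and 22.6 at those with 3′ ends only. The part of density in the differences by position was not tested. Within libraries, the median log2 CPM of members at 5′ ends exceeded that of members at 3′ ends by 0.81 ± 0.13 in NaCl, 0.81 ± 0.09 with pyruvate, 0.62 ± 0.06 with lactate and 0.55 ± 0.06 with Oxyrase (SD, n = 3). NaCl 3, at 0.67, lay within the range of the lactate libraries (0.57 to 0.68).

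Within the class, greater width did not go with a larger change. Of 1578 members of 800 to 899 bp, 23.8% fell with lactate (median -0.14), and of 235 members of at least 2000 bp, 10.6% fell (median -0.08). Density went with the change in this comparison: with members ranked by counts per kb and split into 4 groups of equal size, 6.50% of the lowest group fell with lactate (median 0.01), and in the other groups, in rising order, 20.3%, 26.9% and 24.8% (medians -0.13, -0.18 and -0.18). Across the 9597 members the Spearman correlation of this change was 0.06 with width and -0.36 with counts per kb. For Oxyrase with lactate against lactate the order was another: 20.3%, 33.7%, 29.6% and 17.7% fell from the least to the most dense group, and the Spearman correlation with counts per kb was -0.04. Members are not replicates and differ in counts and thus in the power of the test, so these are descriptions.

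GC content was graded in the same way. Members were split into 5 groups of about equal size by promoter GC. From the group of lowest GC (34.3% to 56.0%) to that of highest GC (71.0% to 88.7%), the median change with lactate against NaCl was -0.09, -0.17, -0.17, -0.19 and -0.19, and 15.1%, 23.9%, 23.0%, 26.5% and 28.0% fell. Over 6302 members the Spearman correlation was -0.18 with promoter GC and -0.26 with the number of CG dinucleotides for lactate against NaCl, -0.19 with CG dinucleotides for Oxyrase with lactate against lactate, and 0.25 for pyruvate against lactate. The log2 ratio of counts in the highest to those in the lowest GC group of members was 0.33, 0.35 and 0.25 in NaCl, 0.32, 0.33 and 0.30 with pyruvate, 0.25, 0.22 and 0.22 with lactate, and 0.13, 0.18 and 0.19 with Oxyrase. Oxyrase libraries lay below lactate libraries and these below pyruvate libraries, and NaCl 3 was level with lactate 1. Recovery of GC-rich DNA in amplification can also differ between libraries; its part in the results was not tested, since no genome sequence was used to correct for it.

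Members whose promoter window held a motif were compared with those without it, as a description in which promoter GC was not held equal. The lowest medians for lactate against NaCl were with the NRF1 site (-0.21 with and -0.16 without), the YY1 site (-0.21 and -0.16) and the cyclic AMP response element (-0.19 and -0.16), and the GC box had -0.18 and -0.11. Members with the AP-1 site (-0.11 in 183 with and -0.16 without), the RUNX core (-0.14 and -0.17) or the TATA box (-0.14 and -0.16) stood higher than those without. For Oxyrase with lactate against NaCl the medians with and without the AP-1 site were -0.16 and -0.30. The hypoxia response core had -0.15 with and -0.13 without it for Oxyrase with lactate against lactate, close to each other.

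The change also differed by chromosome. With lactate against NaCl 44.0% of the 721 members on chromosome 11 fell (median -0.26) and 42.1% of the 297 on chromosome 19 (median -0.27), but 6.99% of the 501 on chromosome 3 (median -0.05) and 3.72% of the 296 on the X chromosome (median -0.03). Without NaCl 3 these medians were -0.35, -0.34, -0.09 and -0.06. Chromosome 11 took 7.53%, 7.62% and 7.15% of member counts without the ribosomal repeat in NaCl, 7.50%, 7.52% and 7.64% with pyruvate, 6.88%, 6.91% and 6.76% with lactate, and 6.55%, 6.15% and 6.31% with Oxyrase. The X chromosome went the other way, with 2.07%, 2.06% and 2.17%, then 2.09%, 2.08% and 2.02%, then 2.27%, 2.23% and 2.28%, then 2.41%, 2.55% and 2.46% in the same order. On both chromosomes the lactate libraries did not overlap those of NaCl, pyruvate or Oxyrase. Shares of a whole are tied to each other, so chromosomes are not independent.

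Peaks that were not members had a similar order of chromosomes, at a higher level. On chromosome 11 the other peaks had a median of -0.03, on chromosome 19 of -0.01 and on the X chromosome of 0.09 for lactate against NaCl. Across 20 chromosomes the medians of members and of other peaks had a Spearman correlation of 0.91 for this comparison and 0.93 for Oxyrase with lactate against lactate. These points share their libraries. The members' median had a Spearman correlation of -0.32 with the median promoter GC of the 19 chromosomes that have windows.

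**Figure D4:**
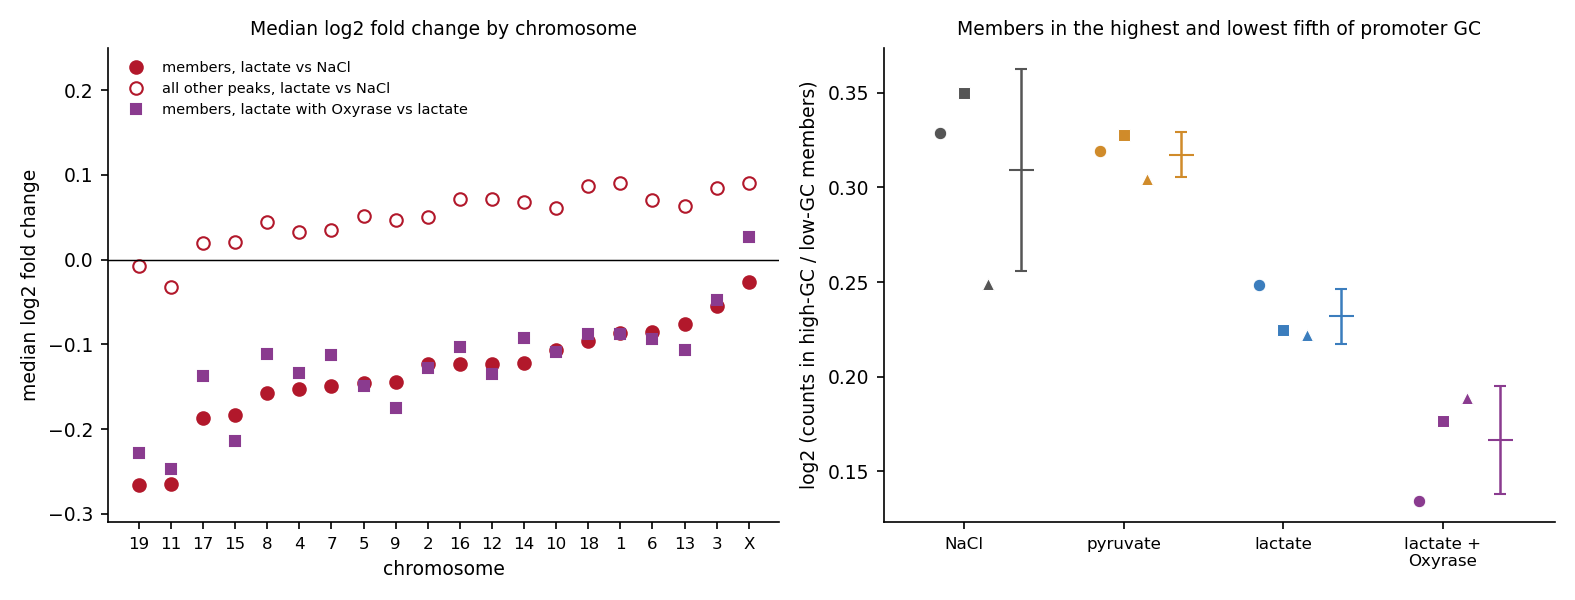
Left, median log2 fold change (y axis) of wide gene-end peaks and of all other peaks by chromosome (x axis, ordered by the change of members with lactate against NaCl); chromosomes 19 and 11 are lowest (-0.27 and -0.26) and X highest (-0.03), and other peaks lie above them in a similar order. Right, log2 ratio of counts in the group of highest to those in the group of lowest promoter GC per library (y axis that does not start at 0; bars mean and SD of 3), which falls from 0.25 to 0.35 in NaCl to 0.13 to 0.19 with Oxyrase.

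The members with most counts were 2 peaks at the ribosomal RNA repeat annotated as Rn18s-rs5, chr17:39843038-39847263 and chr17:39847471-39848779, which held 0.683% and 0.234% of all peak counts. Ribosomal RNA genes lie in long tandem arrays, so reads of many copies may pile up on this one annotated place, and its counts are uncertain for that reason. Both together had 11813, 12724 and 9046 CPM of the unscaled total in NaCl, 10078, 11725 and 10637 with pyruvate, 8988, 7896 and 7395 with lactate, and 6311, 7529 and 6459 with Oxyrase. Lactate libraries lay below NaCl and pyruvate libraries and overlapped those with Oxyrase. Each peak fell with lactate against NaCl, by 0.55 on the log2 scale (-0.55 ± 0.14 and -0.55 ± 0.13; edgeR adjusted p = 0.0101 and 0.00534), and Oxyrase added to lactate gave -0.30 ± 0.14 and -0.27 ± 0.13, which did not pass (adjusted p = 0.106 and 0.12). Without these 2 peaks the share of counts in members was 43.0%, 43.0%, 40.5% and 38.2% in the 4 groups, in the order above.

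With lactate against NaCl, members at other noncoding RNA genes moved in the direction of the class, apart from those at small nuclear RNA genes. Of 122 at tRNA genes, which RNA polymerase III reads, 14.8% fell with lactate against NaCl (median -0.15) and none rose. Of 112 at microRNA genes 29.5% fell (median -0.18), of 55 at small nucleolar RNA genes 29.1% (median -0.16) and of 1934 at long noncoding RNA genes 16.1% (median -0.11), beside 19.6% of all members. The 58 members at small nuclear RNA genes, parts of the splicing machinery, stood at -0.01 with 6.90% lower, but with Oxyrase against lactate alone 55.2% fell (median -0.28), beside 25.3% of all members. For small nucleolar RNA genes the latter share was 43.6% (median -0.24). Many of these genes lie inside or beside protein-coding genes and share the peak with them.

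The gene lists below are read against all members, of which 19.6% fell with lactate against NaCl (median -0.13) and 25.3% with Oxyrase added to lactate (median -0.13), and against all peaks, of which 5.28% and 12.8% fell. Percentages after a list's count are shares of its members. Transcript counts of a list are read against all genes tested, of which 26.1% rose and 23.6% fell with Oxyrase added to lactate. Among genes of the translation machinery, 64 cytosolic ribosomal protein genes had 72 members. With lactate against NaCl 23 fell (31.9%) and 1 rose (median -0.24), with Oxyrase added to lactate 33 fell (45.8%) and none rose (median -0.24), and pyruvate was higher than lactate at 29 and lower at 2. Scaled over the members, Oxyrase against lactate left 15 lower and 1 higher. The member at Rpl3, shared with the small nucleolar RNA gene Snord43, had 49.8, 51.3 and 37.6 CPM in NaCl, 35.3, 32.2 and 28.5 with lactate and 22.1, 22.4 and 23.9 with Oxyrase, with no overlap between the groups; the change of Oxyrase against lactate was -0.49 ± 0.10 (edgeR adjusted p = 0.000209). Of 63 ribosomal protein transcripts tested, 14 rose and 8 fell in that comparison, and Rpl3 stood at 0.06 (adjusted p = 0.13). Mitochondrial ribosomal protein genes had 56 members, of which 11 fell with lactate (19.6%, the same as for all members) and 20 with Oxyrase added (35.7%), with none higher (10 lower and 3 higher with Oxyrase when scaled over members), and 25 of 54 transcripts fell and 4 rose. Ribosome biogenesis genes had 23 members, 6 (26.1%) and 8 (34.8%) of which fell and none rose, and 10 of 20 transcripts fell with Oxyrase and 2 rose.

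HIF target genes, which are switched on when oxygen is low, had 27 members. With Oxyrase against lactate 7 fell (25.9%, near the 25.3% of all members) and none rose (2 lower and 4 higher scaled over members), and 20 of 26 transcripts rose and 1 fell. At Vegfa, the vascular growth factor gene, the promoter had 32.9, 34.3 and 30.6 CPM with lactate and 35.4, 30.5 and 29.1 with Oxyrase, overlapping values (-0.04 ± 0.09, edgeR adjusted p = 0.786), and the transcript rose from 49.5 ± 3.60 to 108 ± 14.6 CPM (1.12 ± 0.09, adjusted p = 9.22e-09). At Kdm6b, a histone H3K27 demethylase, a member 980 bp from the gene's end fell from 32.5, 28.6 and 25 to 21.1, 20.0 and 16.8 CPM, without overlap (-0.57 ± 0.11, adjusted p = 0.000102), while its transcript rose (0.88 ± 0.07, adjusted p = 1.02e-08).

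Genes of the integrated stress response under ATF4, which supply amino acids, had 24 members: 6 fell (25%, near the 25.3% of all members), 1 rose (4 and 3 scaled over members), and 21 of 21 transcripts tested rose. The riser was Asns, asparagine synthetase, at 30.0, 29.5 and 30.1 CPM with lactate and 39.1, 45.1 and 39.4 with Oxyrase, without overlap (0.46 ± 0.09, edgeR adjusted p = 7.23e-05; transcript 1.25 ± 0.08). Of 12 members at NRF2 and oxidant defence genes 3 fell (25%) and 2 rose (1 and 3 scaled over members); the risers were Nqo1 and Srxn1, sulfiredoxin (0.42 ± 0.09, adjusted p = 0.000324; transcript 3.45 ± 0.13); 6 of 12 transcripts rose and 1 fell. Cholesterol synthesis genes had 19 members, of which 5 fell (26.3%, also near that share) and 1 rose (3 and 3 scaled over members), and all 19 transcripts tested fell. At Mvd, mevalonate decarboxylase, which shares its peak with Cyba, counts went from 53.4, 50.9 and 48.6 to 39.0, 36.3 and 35.5 CPM (-0.46 ± 0.09, adjusted p = 0.000109; transcript -1.77 ± 0.08). Of 28 members at nuclear respiratory chain genes 10 fell (35.7%) and none rose (4 and 1 scaled over members), and of 14 at glycolysis genes 6 fell (42.9%) and none rose (5 and 1).

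Among T cell genes, members at activation and signalling factors fell at 12 of 22 (54.5%, against 25.3% of all members) with Oxyrase against lactate, and none rose; scaled over members 7 fell. Myc, the growth regulator, had 58.4, 59.9 and 49.5 CPM in NaCl, 54.7, 51.7 and 52.1 with pyruvate, 48.3, 44.7 and 42.1 with lactate and 34.5, 31.8 and 32.1 with Oxyrase. Oxyrase libraries lay below all others (-0.46 ± 0.09 against lactate, edgeR adjusted p = 0.000142), and the transcript fell from 547 ± 22.0 to 339 ± 12.7 CPM. Irf8, a factor of the interferon regulatory family, fell too (-0.47 ± 0.10), as did its transcript (-0.81). In the same list 12 of 22 transcripts rose and 5 fell.

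Effector genes had 12 members, 4 of which fell with Oxyrase against lactate (33.3%, against 25.3% of all members) and none rose (1 and 2 scaled over members), and 11 of 13 transcripts rose and 2 fell. At Prf1, perforin, the promoter had 35.8, 39.1 and 37.0 CPM with lactate and 40.8, 38.6 and 36.7 with Oxyrase, overlapping values (0.05 ± 0.09, edgeR adjusted p = 0.672), and the transcript rose from 154 ± 4.71 to 441 ± 8.38 CPM (1.52 ± 0.08). Csf2, the cytokine GM-CSF, had 25.4, 25.5 and 20.1 CPM in NaCl, 27.7, 26.2 and 23.8 with pyruvate, 18.7, 16.5 and 15.2 with lactate and 22.3, 18.4 and 19 with Oxyrase. It fell with lactate against NaCl (-0.49 ± 0.10, adjusted p = 0.00173) and was higher with pyruvate than lactate (0.63 ± 0.10, adjusted p = 0.000109), each without overlap. Oxyrase against lactate gave 0.25 ± 0.10 at the peak (adjusted p = 0.0644; 0.37 with adjusted p = 0.0051 scaled over members) and 3.21 ± 0.11 in the transcript (27.8 ± 1.94 to 258 ± 32.3 CPM, adjusted p = 3.94e-13). At Gzmb, granzyme B, the peak stood at -0.09 ± 0.09 (adjusted p = 0.471) and the transcript at 0.41 ± 0.07 (adjusted p = 8.6e-05).

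Naive and memory genes had 12 members, of which 6 fell (50%, against 25.3% of all members) and none rose (1 and 0 scaled over members), and 7 of 10 transcripts fell and 1 rose; Ccr7, the homing receptor to lymph nodes, fell in both (-0.57 ± 0.09 and -0.45). Cd8b1, a chain of the CD8 co-receptor, had 66.9, 65.5 and 63.8 CPM with lactate and 58.8, 53.6 and 55.3 with Oxyrase, without overlap (-0.23 ± 0.09, edgeR adjusted p = 0.046); the call was lost when scaled over members (-0.10, adjusted p = 0.26). Pdcd1, the checkpoint receptor PD-1, stood at -0.01 ± 0.09 for Oxyrase against lactate (adjusted p = 0.962) and was lower with pyruvate than lactate (-0.29 ± 0.09, adjusted p = 0.0228). Of 26 members at DNA replication genes and 19 at mitosis genes 6 each fell with Oxyrase against lactate (23.1% and 31.6%) and none rose; scaled over members replication genes had 3 lower and 2 higher and mitosis genes 1 and 3. Of 25 replication transcripts 20 fell and 3 rose.

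The remaining lists are given for Oxyrase against lactate, with the share of the list that was lower and the counts scaled over members in brackets, beside 25.3% of all members and 12.8% of all peaks. Zinc finger genes of the Zfp series, mostly repressors of repeats and genes, had 226 members, the largest list, of which 44 fell and 6 rose (19.5%; 20 and 45). The direction of that list thus depended on the scaling. Its transcripts rose at 55 and fell at 38 of 223, where 26.1% of all genes tested rose and 23.6% fell. Genes of chromatin dioxygenases, enzymes that use oxygen to remove methyl groups, had 20 members with 5 lower and none higher (25%; 4 and 1), and deacetylases and acetyltransferases 20 with 10 lower and none higher (50%; 3 and 2). Interferon-stimulated genes had 21 members, 4 lower and 1 higher (19%; 2 and 1), and 14 of 19 transcripts fell and none rose. Targets of p53 had 16 members, 3 lower and none higher (18.8%; 1 and 3), receptor and lineage genes of T cells 7 with 2 lower and none higher (28.6%; 0 and 0), and inhibitory receptors 6 with 1 lower and none higher (16.7%; 1 and 1).

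Transcripts of the members' genes were measured in separate libraries. Of 12308 gene symbols 10871 matched the RNA table and 9124 transcripts were tested, 83.9% of the matched ones against 26.6% of all 55401 genes. They are most of the 14749 transcripts tested, to which the RNA libraries were scaled, so their median and the balance of rises and falls are set by that scaling, and a change of the whole set could not have been seen. The deposited RNA values may have been adjusted for replicate number, which was not tested. If so, their p-values would be smaller than they should be. With lactate against NaCl 372 of these transcripts rose (4.08%, against 3.61% of all genes tested) and 423 fell (4.64%, against 4.12%), with a median of 0.01. Of 795 calls in all, 333 were left when NaCl 1 was omitted, 283 for NaCl 2, 324 for lactate 2 and 444 for lactate 3. Pyruvate against NaCl gave 970 higher (10.6%, against 9.4%) and 636 lower (6.97%, against 6.28%), and the total of 1606 became 1015 without NaCl 2 and 869 without pyruvate 2.

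Oxyrase with lactate against lactate gave 2629 higher (28.8%, against 26.1%) and 2455 lower (26.9%, against 23.6%), with a median of 0.01. Against NaCl it gave 2697 higher (29.6%, against 26.5%) and 2471 lower (27.1%, against 24.3%). Pyruvate against lactate gave 1328 higher (14.6%, against 13.0%) and 1160 lower (12.7%, against 10.9%).

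For 6312 genes with a wide peak labelled by their 5′ end and a tested transcript, the call of the peak was set beside that of the transcript. Peaks shared with other genes were kept and given only the transcript of the gene that labels them. Of several peaks of a gene the widest was used. With Oxyrase against lactate, 34.8% of 1735 genes with a lower peak had a lower transcript and 23.3% a higher one. Among 4507 genes whose peak was not called the shares were 25.4% and 31.6%, and among 70 genes with a higher peak 5.71% and 54.3%. With lactate against NaCl the shares hardly differed: 5.05% lower and 3.91% higher of 1484 genes with a lower peak, and 4.87% and 4.58% of 4825 not called. With pyruvate against lactate the 1755 genes with a higher peak had 11.2% higher and 16.0% lower transcripts, and 4511 genes not called 16.4% and 11.5%. Across the 6312 genes the Pearson correlation of peak and transcript changes was 0.21 for Oxyrase against lactate, -0.01 for lactate against NaCl, -0.10 for pyruvate against lactate and 0.03 for pyruvate against NaCl. Genes are not replicates, and they share the same libraries.

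**Figure D5:**
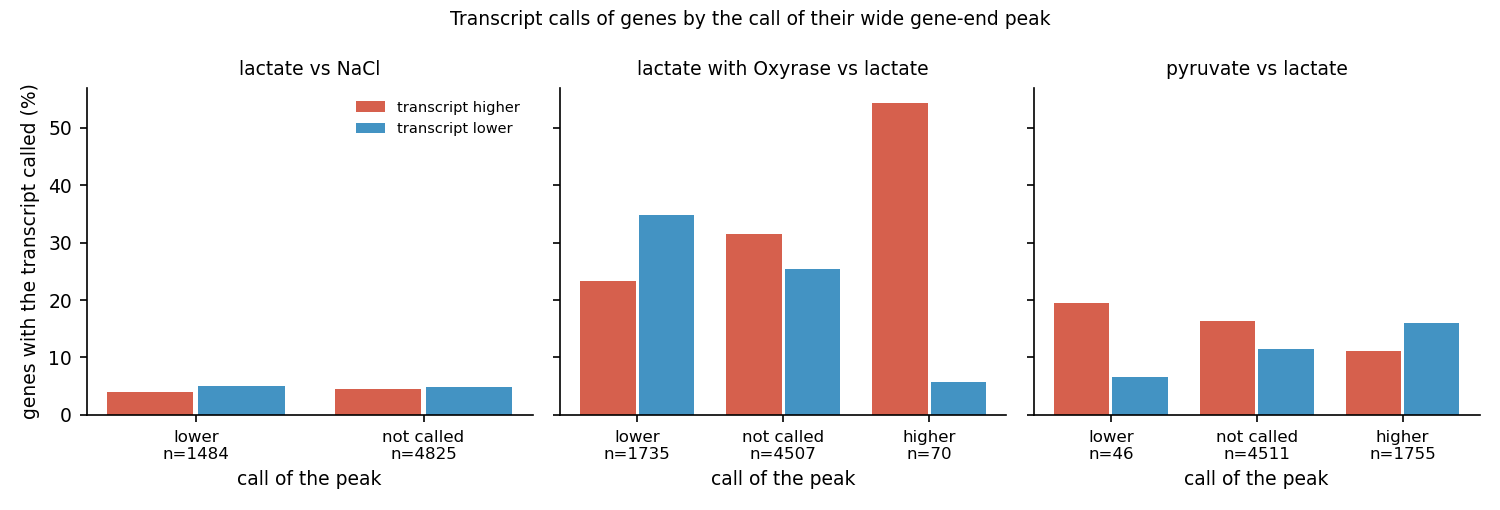
Percentage of genes (y axis) whose transcript was called higher or lower in edgeR, grouped by the call of their wide gene-end peak (x axis, with n genes), in 3 comparisons; groups of under 20 genes are not drawn. With Oxyrase against lactate 54.3% of genes with a higher peak had a higher transcript and 34.8% of genes with a lower peak a lower one, while with lactate against NaCl both groups lie between 3.91% and 5.05%.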

How the data were processed

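ATAC-seq and poly(A) RNA-seq were each made from 12 libraries, 3 in each of 4 groups. For ATAC-seq the authors deposited raw read counts per peak, whole numbers for 75802 peaks; the submitters' processing notes name BWA, Picard, MACS2, bedtools and the mm10 build, and duplicate and mitochondrial reads were removed, per the file headers. How peaks were merged over libraries is not given in the sources used here. For RNA-seq the authors deposited estimated counts per gene, which are not all whole and were rounded here; the submitters' processing notes name Trimmomatic, RSEM 1.2.12, Bowtie2 2.2.0 and edgeR 3.20.9. These estimated counts may have been adjusted for replicate number before deposit, which was not tested.

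Members were found by width (at least 800 bp) and by distance (at most 1 kb) to either end of a gene in a RefSeq table of GRCm38.p6, the same build as mm10. Counts of all peaks, or of the 14749 of 55401 genes that passed edgeR's filter on low counts, were fitted with edgeR 4.0.16 (R 4.3.3) over all 12 libraries, with TMM scaling, the quasi-likelihood test and Benjamini-Hochberg adjustment at 0.05; the filter kept every peak. Libraries of a group varied by 9.70% (ATAC) and 5.05% (RNA) beyond counting noise (biological coefficient of variation). Standard errors are the log2 fold change divided by the root of the F statistic. CPM values are TMM-scaled. Single values per library were compared by exact two-sided permutation tests over libraries (Python 3.11.15, numpy 2.4.6). Scripts were tested on simulated data.

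Genes were named by rule: in each comparison the 5 highest and 5 lowest called members with a named gene, a mean log2 CPM of at least 3 and groups that do not overlap; with no called member the 3 of smallest p; the 6 widest and 6 densest; up to 3 called members of largest change per gene list; a fixed set of T cell and oxygen-response genes; and the 3 nearest each side of 800 bp. Not every gene so chosen is printed, and 1 is not reported here. The members, the gene lists and the rule were chosen with earlier results of these data known. Alternatives were DESeq2 1.42.0, other scalings, widths, distances and thresholds, a replicate block, and leaving out each library.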

Additional observations from a re-analysis of the deposited data

How the results depend on the processing

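No called change of a named member changed its direction under the alternatives run, but the members' median changed its sign in 3 comparisons when scaled over members (values below). Of 149 changes of named members, 24 lost their call when scaled over members, 9 with a loess trend, 4 with total counts and 1 with DESeq2; leaving out NaCl 2 ended 42 of 72, NaCl 1 25 of 72, lactate 3 32 of 139 and lactate 2 22 of 139.

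Over the libraries left out one at a time, members called ranged from 0 to 0 for pyruvate against NaCl, 286 to 3879 for lactate against NaCl, 4620 to 6254 for Oxyrase with lactate against NaCl, 1994 to 2239 for Oxyrase with lactate against lactate and 1038 to 2659 for pyruvate against lactate. Median log2 fold changes of members ranged from -0.07 to 0.03, -0.19 to -0.10, -0.30 to -0.21, -0.15 to -0.11 and 0.10 to 0.15, in the same order. Transcripts called ranged from 869 to 1316, 283 to 769, 4648 to 4868, 4536 to 4733 and 1768 to 2064. Oxyrase minus NaCl ranged from -6.02 to -4.28 points in the share of counts, -0.31 to -0.21 for wide gene-end over wide other peaks, and -0.14 to -0.083 for wide over narrow gene-end peaks. The last passed the exact permutation test without NaCl 3 (p = 0.0438) and without Oxyrase 2 (p = 0.0498). With any of the other libraries left out it did not pass, with an exact permutation p of up to 0.253 (without Oxyrase 1).

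Member medians were -0.053 for lactate and -0.14 for Oxyrase with lactate against NaCl with total counts, -0.35 for the latter when scaled over distal peaks, and 0.0087, 0.014, -0.0020 and -0.014 (lactate and Oxyrase with lactate against NaCl, Oxyrase with lactate and pyruvate against lactate) when scaled over members; with the loess trend they were -0.026, -0.069, -0.044 and 0.032. At an adjusted p of 0.01, 943 members were called for lactate against NaCl, 1446 for Oxyrase with lactate and 1343 for pyruvate against lactate, and 760, 227 and 1409 transcripts for pyruvate and lactate against NaCl and pyruvate against lactate. With a width of at least 1000 bp, which leaves 6422 members, 1171, 3692, 1769 and 1532 were called in the order of the medians. The ratio of wide to narrow gene-end peaks passed with a width of at least 600 bp (-0.20, exact permutation p = 0.0355), within 2.5 kb (-0.16, p = 0.0336) and without the top 1% of peaks (-0.11, p = 0.0399). It did not pass with a width of at least 1000 bp (-0.048, exact permutation p = 0.238) or within 500 bp (-0.070, p = 0.226). Nor did it pass with protein-coding genes only (-0.037, exact permutation p = 0.670) or without the ribosomal repeat (-0.095, p = 0.114). The cause was not tested.

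Libraries of the same number in different groups had correlations of -0.379 to 0.412, 12 of 18 over 0.1. Their mean was 0.155, against -0.0797 for libraries of different numbers. Of 12 libraries, 8 correlated best with their own number, and the numbers were not taken as pairs. With a replicate block 0, 2656, 5999, 3347 and 3073 members were called (pyruvate, lactate, Oxyrase with lactate against NaCl; Oxyrase with lactate and pyruvate against lactate), and 445 transcripts for lactate against NaCl; the exact p over block permutations was 0.00694 for the share of counts, 0.0660 for wide over narrow gene-end and 0.00694 for wide gene-end over wide other peaks. Each member had at least 53 counts in every library; how far depth limits calls among the members of fewest counts was not tested.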
